A study of Homo sapiens with 6 samples.

Results

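The genes described here encode the Sm and LSm proteins, other protein components of the spliceosomal small nuclear ribonucleoproteins (snRNPs), and the factors that assemble snRNPs. They were chosen by name, as the gene rows whose symbol is one of 42 listed symbols, out of 23698 gene rows per library. All 42 symbols matched 1 row each, and all 42 passed the filter on low counts, which kept 13668 genes in all. Sm proteins are known substrates of PRMT5, the enzyme targeted in the study.

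Sm proteins form a ring on the small nuclear RNAs of the spliceosome, and the LSm proteins form related rings on U6 RNA in the nucleus and on mRNAs that are being degraded in the cytoplasm. PRMT5, with its partner WDR77 (MEP50) and pICln, the product of CLNS1A, places symmetric dimethyl marks on arginines in the tails of SmB, SmD1 and SmD3, and the SMN complex, whose Gemin subunits are among the genes described, then loads the ring onto the RNA. This acts on the proteins, whereas the libraries measured mRNA. The study asked how gene expression differed between leukaemia cells with lowered PRMT5 and controls.

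RNA was taken from MV4-11, an established acute myeloid leukaemia line with the FLT3 internal tandem duplication, grown in medium with fetal bovine serum. One group of 3 poly(A) RNA-seq libraries came from cells stably transduced by lentivirus with a short hairpin RNA (shRNA) against PRMT5, and the other group of 3 from cells transduced in the same way with a scrambled vector. The labels name no clone, hairpin sequence, time point or selection step. They also do not say whether replicates were separate cultures, so the p-values measure only the spread between these libraries, which may be technical.

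Library totals ran from 16408484 to 19077106 estimated counts. Of 9 myeloid genes fixed as a check of the cell type, 8 were at or above 1 CPM (counts put on a common library size, with TMM factors) in every library; their summed level was 1654 to 2476 CPM in the knockdown and 1377 to 2301 CPM in the control libraries. Of 4 T cell genes, CD3E and CD2 were at 0 in all 6 libraries, and the list summed to at most 0.121 CPM with the PRMT5 hairpin and 0.227 CPM with the scrambled vector. The 4 B cell genes summed to 0.835 to 1.58 CPM and 0.466 to 2.55 CPM. The 4 fibroblast genes, with COL1A2 and COL3A1 at 0, summed to 0.0522 to 0.324 CPM and 0.454 to 4.99 CPM, the highest being the library labelled control 2, through COL1A1. EPCAM was at 0 in all libraries but the keratins KRT8 and KRT18 were read, and the 4 epithelial genes summed to 16.9 to 27.9 CPM in the knockdown and 15.1 to 52.1 CPM in the control libraries. One library stood apart: the library labelled control 2 was the lowest of the 6 for 36.7% of all tested genes and the highest for 34.4%. Log2 differences that moved by over 1.5 times when it was left out are given both ways.

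PRMT5 itself was at 103, 71.6 and 52.99 CPM in knockdown libraries 1 to 3. Controls 1 and 3 had 133 and 158 CPM. The library labelled control 2 had 53.2 CPM, which goes against that label. The groups overlapped because of that library, and the difference, knockdown minus control, was −0.60 on the log2 scale (SE 0.43, edgeR adjusted p = 0.926), and −0.94 without it. In a bulk library a lower share of cells with an mRNA and less of it per cell cannot be told apart.

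No Sm, LSm or snRNP assembly gene differed between PRMT5 knockdown and control beyond the spread between libraries. With edgeR's quasi-likelihood test 0 of 42 members had an adjusted p under 0.05, the smallest being 0.926, in a table where 0% of 13668 genes did. At an unadjusted p under 0.05 there were also 0 members, against 1.77% of all genes. DESeq2 and limma-voom each called 0 members too, with 0 at an unadjusted p under 0.05, a limit that 3.37% and 0.856% of all genes passed with these tools. The median log2 difference was 0.10 over the members and −0.00069 over all tested genes. Fitted differences lay above 0 for 31 members and below 0 for 11, where 49.9% of all genes lay above 0. The 95% confidence interval of every member included 0.

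The intervals also bound what these libraries can show. For 32 members the interval lay wholly inside a 2-fold change in either direction. The other 10 were SNRPB, SNRPD1, SNRPC, SNRPA1, SNRNP25, SNRNP48, LSM6, GEMIN4, GEMIN5 and GEMIN6, and for these a 2-fold difference was within the interval. The widest was that of SNRNP25, from −1.21 to 1.29 on the log2 scale.

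**Figure D1:**
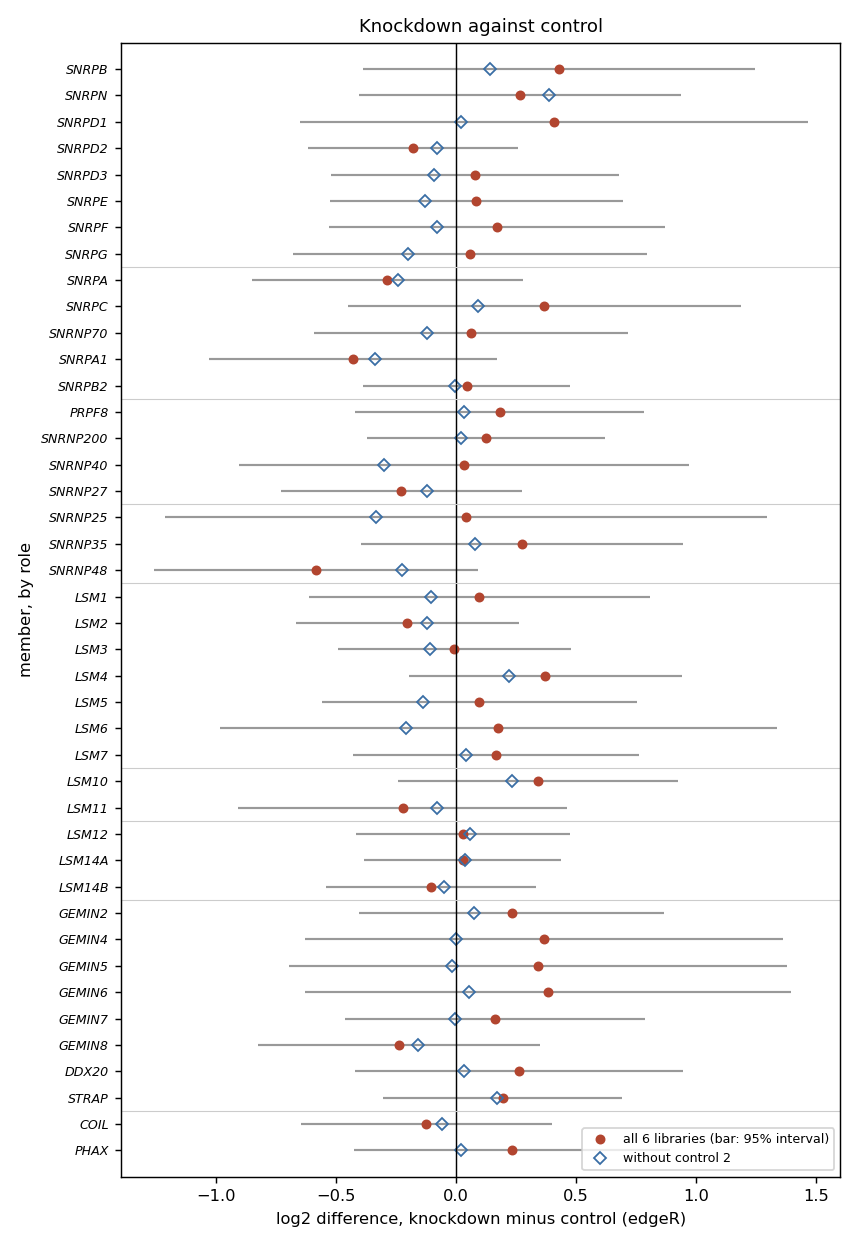
Log2 difference of knockdown minus control for each of the 42 members, ordered by role (x axis, log2 scale; filled dots, all 6 libraries; bars, 95% confidence interval from edgeR; open diamonds, the same fit without the library labelled control 2). Every bar crosses 0, and 31 dots but only 17 diamonds lie above 0.

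These differences moved with the library labelled control 2. Without it the median over the members was −0.03, with 17 of 42 above 0 (50.4% of all genes lay above 0 in that fit), and 14 members had changed sign. No member was called there either (smallest edgeR adjusted p over the members 0.99996, in a table where 0% of 13853 genes were called).

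The core Sm ring is built from SmB, SmD1, SmD2, SmD3, SmE, SmF and SmG, and SNRPN encodes a neuronal variant of SmB. SNRPB, on chromosome 20, encodes SmB, one of the proteins with an arginine-rich tail that PRMT5 methylates. Its level was 386, 255 and 258 CPM in knockdown libraries 1 to 3, and the control-labelled libraries 1 to 3 had 268, 123 and 276 CPM. Knockdown 1 was the highest library and the library labelled control 2 the lowest, while the other 4 lay close together. The groups overlapped, at 299.7 ± 74.7 CPM and 223 ± 86.0 CPM (SD, n = 3 each). The log2 difference was 0.43 (SE 0.35, edgeR adjusted p = 0.926), and 0.14 without the library labelled control 2.

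SNRPD1, on chromosome 18, encodes SmD1, another methylated Sm protein. With the PRMT5 hairpin it was at 119, 82.9 and 97.7 CPM, and with the scrambled vector at 87.8, 28.9 and 109 CPM. The 28.9 CPM in the library labelled control 2 was 3.39-fold below controls 1 and 3, the widest such gap of any member. The log2 difference over all libraries was 0.41 (SE 0.45), and 0.02 without that library. SNRPD3, on chromosome 22, encodes SmD3, the other methylated subunit. Its values were 104, 107 and 130 CPM with the PRMT5 hairpin and 103, 80.0 and 140 CPM with the scrambled vector. The 2 groups covered much the same range, with a log2 difference of 0.08 (SE 0.26), and −0.09 without the library labelled control 2.

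SNRPE, SNRPF and SNRPG encode the subunits that enter the ring as a trimer, and they shared one order of libraries at the ends. SNRPE was at 113, 95.6 and 109 CPM in knockdown cells, against 111, 67.5 and 121 CPM in the controls. SNRPF was at 91.4, 77.3 and 96.7 CPM against 83.7, 48.6 and 104 CPM. SNRPG was at 55.7, 49.9 and 67.8 CPM against 58.1, 33.6 and 74.8 CPM. In each of these genes control 3 was the highest library and the library labelled control 2 the lowest, so both extremes lay in the control group. Their log2 differences were 0.08, 0.17 and 0.06, and −0.13, −0.08 and −0.20 without the library labelled control 2. Over the 8 core Sm genes the median was 0.13 with 7 above 0, and −0.08 with 3 above 0 without it.

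SNRPD2 and SNRPN did not share that order. SNRPD2, on chromosome 19, encodes SmD2, which pairs with SmD1 in the ring. It was at 144, 150 and 155 CPM with the PRMT5 hairpin and at 161, 191 and 156 CPM with the scrambled vector, so the library labelled control 2 was the highest rather than the lowest. Every knockdown value lay just below every control value, but the log2 difference of −0.18 (SE 0.19) did not pass the test and was −0.08 without that library. SNRPN, on chromosome 15, was at 215, 227 and 131 CPM against 174, 184 and 119 CPM, with its 2 lowest values in the libraries numbered 3. Its log2 difference was 0.27 (SE 0.29). SNRPN shares its transcript with SNURF and is nearly identical in sequence to SNRPB, and many Sm genes have processed pseudogenes. How the counting divided such reads is not given in the sources used here, so these levels are uncertain to that extent.

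**Figure D2:**
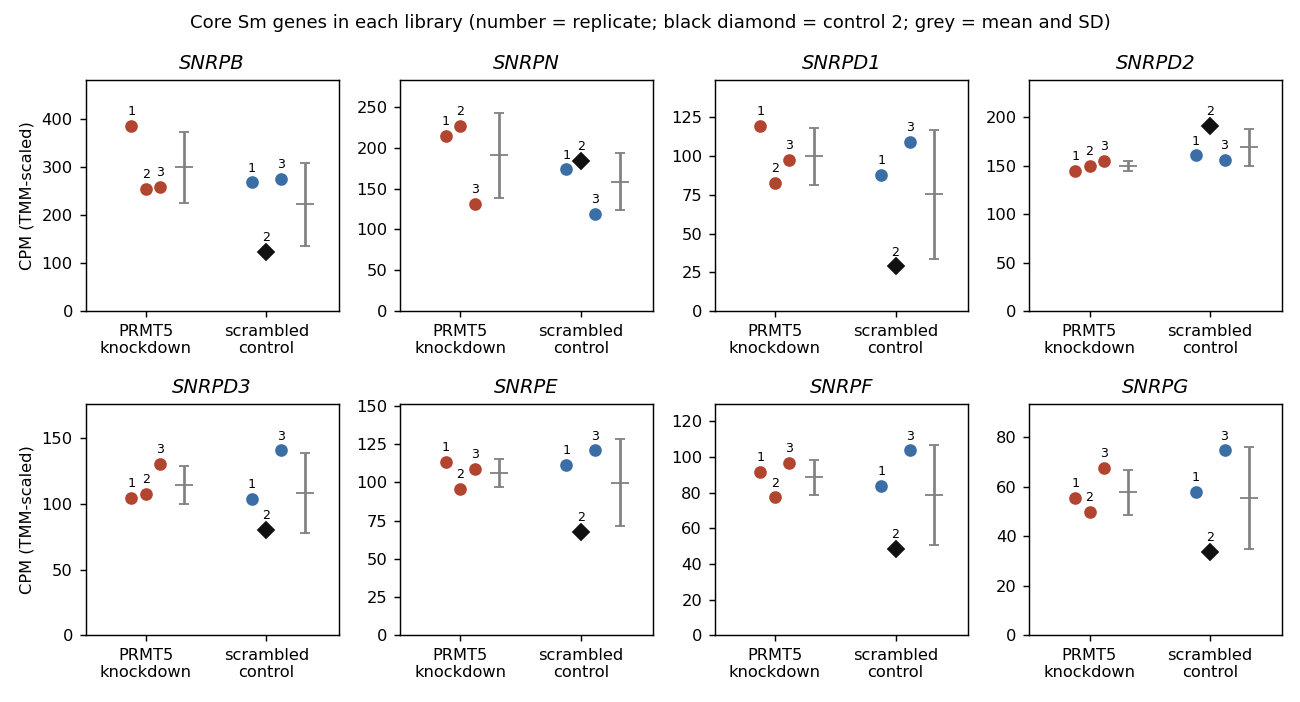
CPM of the 8 core Sm genes in each library (y axis from 0, TMM-scaled; red, PRMT5 knockdown; blue, scrambled control; black diamond, the library labelled control 2; numbers give the replicate; grey bars, mean and SD of 3 libraries). The diamond is the lowest point in 6 of 8 genes, at 28.9 CPM for SNRPD1, and the highest for SNRPD2.

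Among proteins specific to U1 and U2 snRNPs, which recognise the 5′ splice site and the branch point, no gene passed the test. SNRPC, the U1-C gene, was at 145, 91.1 and 117 CPM in knockdown cells, against 94.9, 51.9 and 126 CPM in the controls (log2 difference 0.37, SE 0.35, and 0.09 without the library labelled control 2). That is the pattern of SNRPB and SNRPD1, in which the library labelled control 2 was low. SNRNP70, the U1-70K gene, was at 160, 153 and 229 CPM against 172, 125 and 222 CPM. Its 2 highest values were in the libraries numbered 3, one in each group, and its log2 difference was 0.06 (SE 0.28), and −0.12 without that library.

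The paralogues SNRPA (U1-A) and SNRPA1 (U2-A′) lay the other way. SNRPA1 was at 29.1, 25.1 and 41.5 CPM with the PRMT5 hairpin and 37.3, 48.2 and 43.4 CPM with the scrambled vector, with knockdown 3 inside the control range. It had the second smallest p of the members, at a log2 difference of −0.43 (SE 0.26, 95% interval −1.03 to 0.17), and −0.34 without the library labelled control 2. SNRPA was at 84.0, 89.6 and 128 CPM against 102, 129 and 136 CPM. There too knockdown 3 was above the lowest control, and the log2 difference was −0.29 (SE 0.24). SNRPB2, which encodes U2-B″, was nearly level over the 6 libraries, from 100.2 to 118 CPM, with a log2 difference of 0.04 (SE 0.18), and −0.0024 without the library labelled control 2.

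The U5 snRNP carries the catalytic scaffold of the spliceosome, PRPF8, and the helicase SNRNP200. PRPF8 was at 645, 585 and 763 CPM in knockdown cells, against 546, 457 and 755 CPM in the controls. Both libraries numbered 3 were high and the library labelled control 2 was low, with a log2 difference of 0.18 (SE 0.26), and 0.03 without the latter. SNRNP200 was at 506, 407 and 479 CPM against 446, 361 and 471 CPM (0.12, SE 0.21, and 0.02 without it). SNRNP40, a WD-repeat protein of U5, had a log2 difference of 0.03 that was −0.30 without it, and SNRNP27, of the tri-snRNP, one of −0.23 that was −0.12 without it. SNRNP27 was at 24.6, 30.7 and 29.7 CPM against 30.6, 37.8 and 31.1 CPM, with knockdown 2 just above the lowest control.

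Proteins of the minor spliceosome, which removes U12-type introns, held the smallest p of the 42. SNRNP48, of the U11/U12 di-snRNP, was at 47.8, 44.3 and 45.3 CPM with the PRMT5 hairpin and 56.7, 98.6 and 50.6 CPM with the scrambled vector. The groups did not overlap, and the highest value was again in the library labelled control 2. The log2 difference was −0.58 (SE 0.29, 95% interval −1.26 to 0.09, unadjusted p = 0.0804 and adjusted p = 0.926 in edgeR), and −0.23 without that library. SNRNP25 was at 27.7, 30.7 and 61.0 CPM against 34.9, 15.4 and 65.6 CPM. The libraries numbered 3 held about the same high level in both groups, and the log2 difference was 0.04 (SE 0.54), and −0.33 without the library labelled control 2. SNRNP35 was at 22.8, 23.2 and 16.9 CPM against 20.5, 12.2 and 19.4 CPM, a log2 difference of 0.27 (SE 0.29) that was 0.08 without it.

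Of all 42 members, 3 had every knockdown library below every control, SNRPD2, SNRNP48 and GEMIN8, and 0 had every knockdown library above. Over all tested genes these shares were 3.1% and 3.14%. GEMIN8, a subunit of the SMN complex, was at 11.1, 9.23 and 11.3 CPM against 11.9, 13.7 and 11.7 CPM, so its groups were apart by less than the spread within either. In each of the 3, the library labelled control 2 was the highest of the 6.

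The LSm ring genes LSM1 to LSM7 encode the heptamers that bind U6 RNA and, with LSM1, the ends of mRNAs in decay. LSM4, whose protein carries an arginine- and glycine-rich tail, was at 245, 191 and 172 CPM in knockdown cells, against 178, 121 and 170 CPM in the controls. Knockdown 3 lay just under control 1, so the groups overlapped. The log2 difference was 0.37 (SE 0.24, 95% interval −0.19 to 0.94), and 0.22 without the library labelled control 2. LSM7 was at 111, 67.9 and 88.1 CPM against 81.6, 64.7 and 91.7 CPM (0.17, SE 0.26), with a log2 difference of 0.04 without that library and −0.03 without knockdown 1. LSM2 was at 51.7, 48.4 and 54.1 CPM against 51.3, 65.4 and 60.8 CPM, and unlike its ring partners it was highest in the library labelled control 2 (log2 difference −0.20, SE 0.20, and −0.12 without it). LSM6 varied most, from 9.86 CPM in that library to 41.1 CPM in control 3, a log2 difference of 0.18 (SE 0.50) that was −0.21 without it. LSM1, LSM3 and LSM5 had log2 differences of 0.10, −0.01 and 0.10, and −0.11, −0.11 and −0.14 without it. The median of the 7 ring genes was 0.10, and −0.11 without that library.

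LSM10 and LSM11 replace SmD1 and SmD2 in the U7 snRNP, which processes histone mRNAs. LSM10 was at 20.5, 16.3 and 18.1 CPM with the PRMT5 hairpin and 14.1, 12.1 and 17.1 CPM with the scrambled vector. Knockdown 2 fell within the control range, and the log2 difference of 0.34 (SE 0.25) did not pass. LSM11 was at 6.27, 6.44 and 6.98 CPM against 6.07, 9.08 and 7.82 CPM (−0.22, SE 0.29, and −0.08 without the library labelled control 2). The further LSm-domain genes varied little. LSM14A, which encodes an mRNA-binding protein of P-bodies, was at 212, 204 and 195 CPM against 202, 202 and 196 CPM, a log2 difference of 0.03 (SE 0.18, 95% interval −0.38 to 0.44). LSM12 was at 83.2, 69.9 and 72.6 CPM against 68.4, 76.6 and 76.2 CPM (0.03, SE 0.19), and LSM14B had a log2 difference of −0.10, and −0.05 without that library. LSM12 was at 0.06 without it.

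Genes of the SMN complex, which assembles Sm rings, had the largest median of the role groups, at 0.25, with 7 of 8 above 0. Without the library labelled control 2 the median was 0.02, with 4 of 8 above 0. GEMIN4 was at 82.8, 84.1 and 98.4 CPM in knockdown cells, against 72.6, 28.7 and 105 CPM in the controls. Controls 1 and 3 bracketed the knockdown values and the library labelled control 2 was low; the log2 difference was 0.37 (SE 0.43), and −0.0003 without that library. GEMIN5, which recognises the snRNA, and GEMIN6 had log2 differences of 0.34 and 0.38, and −0.02 and 0.05 without it. GEMIN2, GEMIN7 and DDX20 (Gemin3, a helicase) had 0.23, 0.16 and 0.26 over all libraries (0.08, −0.01 and 0.03 without it), and GEMIN8 −0.24 (−0.16 without it). STRAP, also called unrip, was at 119, 110 and 121 CPM against 84.5, 98.1 and 123 CPM. There control 3 exceeded all knockdown libraries, and the log2 difference was 0.19 (SE 0.21), and 0.17 without the library labelled control 2.

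PHAX, the adaptor that exports snRNA from the nucleus, was at 34.9, 35.2 and 42.7 CPM with the PRMT5 hairpin and 32.5, 21.6 and 41.7 CPM with the scrambled vector (log2 difference 0.23, SE 0.28, and 0.02 without the library labelled control 2). COIL, which encodes coilin of Cajal bodies, another protein with an arginine- and glycine-rich region, was at 35.04, 30.0 and 41.0 CPM against 32.7, 41.8 and 41.1 CPM. Its highest value was in that library, and its log2 difference was −0.12 (SE 0.22), and −0.06 without it.

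Most members thus ranked the libraries alike at the low end. The library labelled control 2 was the lowest of the 6 for 28 of 42 members (66.7%, against 36.7% of all tested genes) and the highest for 9 (21.4%, against 34.4%). It lay below the mean log2 CPM of controls 1 and 3 for 29 members (69%, against 51% of all genes), and over 1.5-fold below it for 19 members (45.2%, against 26.7% of all genes). These shares describe 1 library and were not tested, and the members are not replicates of it. Beyond SNRPD1, the widest gaps were 3.30-fold for LSM6, 3.08-fold for SNRNP25, 3.03-fold for GEMIN4 and 2.92-fold for GEMIN5.

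Summed over the 42 members, the level was 4517, 3874 and 4494 CPM in knockdown libraries 1 to 3. The control-labelled libraries 1 to 3 summed to 3959, 3219 and 4605 CPM. The sum in the library labelled control 2 was 0.752 of the mean of controls 1 and 3, and the controls bracketed all 3 knockdown libraries. By role, that ratio was 0.583 for SMN complex genes, 0.705 for the core Sm ring, 0.712 for the LSm ring and 0.729 for U5 and tri-snRNP genes. It was 1.02 for the minor spliceosome genes and 1.04 for the further LSm-domain genes. In the minor spliceosome group a high SNRNP48 and low SNRNP25 and SNRNP35 added up to that value.

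**Figure D3:**
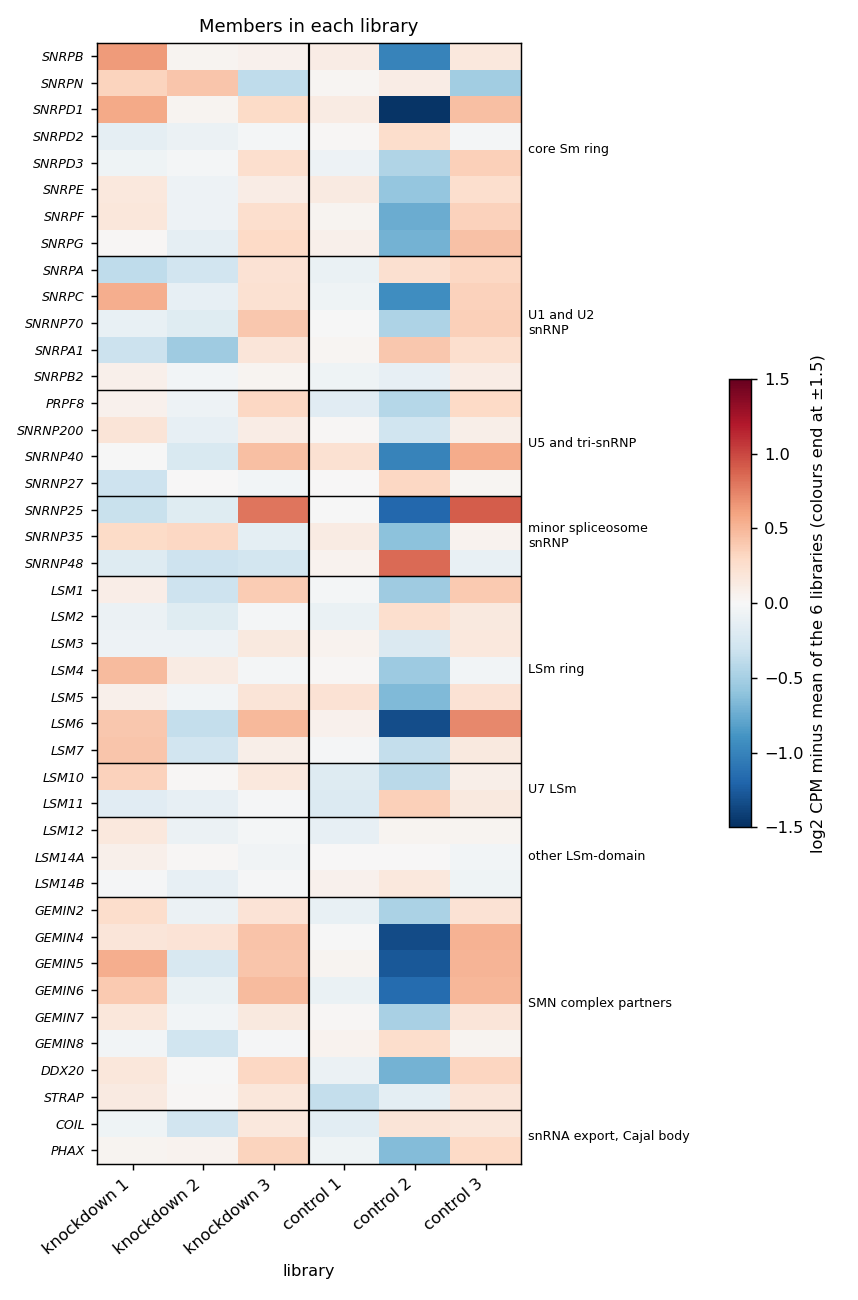
Log2 CPM of each member minus its mean over the 6 libraries (rows, members by role; columns, libraries; red above and blue below the mean, colours ending at ±1.5). The column of the library labelled control 2 is blue for most Sm, LSm ring and SMN complex genes, with a median of −0.46 over the 42 members, while SNRNP48, SNRPA1 and SNRPD2 are red there.

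Other values moved with this library. The library was the lowest of the 6 for 4 of 6 methylosome genes, against 36.7% of all tested genes. WDR77 was at 17.6 CPM, beside 57.2 and 99.9 CPM in controls 1 and 3, and RIOK1, an adaptor of PRMT5, was at 47.9 CPM, beside 87.1 and 106 CPM. LYZ, the lysozyme gene of myeloid cells, was at 35.3 CPM there, beside 430 and 980 CPM. The library thus differed in more than splicing genes, but the myeloid genes did not all move one way. MPO was low too, at 13.8 CPM, and FLT3, CSF1R, SPI1 and CD14 lay below controls 1 and 3. ITGAM was the highest of the 6 there, at 115 CPM. CD33, at 52.8 CPM, lay above controls 1 and 3, and CEBPA lay between them. The TMM factor of the library labelled control 2 was 0.881, and those of the other 5 libraries were 1.00 to 1.04. Under RLE, upper quartile and total-count scaling the members' median log2 difference was 0.10, 0.11 and 0.12, so its sign did not depend on the scaling. The part of these features in the low levels of the members was not tested.

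Since most members were low together in 1 library, their upstream sequences were read from RefSeq (GRCh38.p14). The table held 37 of the 42 members, all but SNRPD1, SNRNP35, LSM1, LSM6 and LSM14A, and the 250 bases before each start were searched on both strands for 4 short motifs. Matches of different motifs could overlap. The core of ETS-family sites, CCGGAAG, was found for 13 of 37 members (35.1%), against 10.2% of all genes in the table and 13.7% of those whose symbol is also in the deposited tables. The E-box CACGTG was found for 3 (8.11%), against 7.73% and 9.71%. GGGCGG was found for 24 (64.9%), against 46.2% and 61.9%, and the CCAAT box CCAAT for 17 (45.9%), against 37.0% and 40.4%. For genes with more than 1 start, a match in any window was counted. The shares over other genes were not limited to genes that passed the count filter, as all members did. A match is a description of letters, not of a bound site.

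Shown are 250 upstream bases, 5′ to 3′ on the gene's strand, of 2 genes that were over 2-fold lower in the library labelled control 2 (SNRPB and GEMIN4) and of 2 that were higher there and lower in every knockdown library than in every control (SNRNP48 and GEMIN8). Capitals mark CCGGAAG or its reverse complement CTTCCGG, and CACGTG.
SNRPB, chr20:2470790-2471039, minus strand: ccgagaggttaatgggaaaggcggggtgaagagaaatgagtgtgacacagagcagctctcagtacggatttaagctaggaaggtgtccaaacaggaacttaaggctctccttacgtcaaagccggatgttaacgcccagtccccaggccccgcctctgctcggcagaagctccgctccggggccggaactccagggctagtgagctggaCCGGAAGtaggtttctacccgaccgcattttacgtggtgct
GEMIN4, chr17:752265-752514, minus strand: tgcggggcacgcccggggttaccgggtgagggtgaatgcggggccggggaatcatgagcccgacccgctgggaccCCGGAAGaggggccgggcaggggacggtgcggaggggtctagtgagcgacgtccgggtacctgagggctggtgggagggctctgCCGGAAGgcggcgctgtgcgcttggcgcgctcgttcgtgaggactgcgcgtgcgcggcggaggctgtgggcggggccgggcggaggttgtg
SNRNP48, chr6:7589948-7590197, plus strand: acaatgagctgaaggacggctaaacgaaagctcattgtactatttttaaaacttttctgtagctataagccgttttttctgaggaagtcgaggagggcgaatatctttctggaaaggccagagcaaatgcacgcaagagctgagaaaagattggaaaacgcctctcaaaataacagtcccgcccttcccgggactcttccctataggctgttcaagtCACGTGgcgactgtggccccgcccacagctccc
GEMIN8, chrX:14029893-14030142, minus strand: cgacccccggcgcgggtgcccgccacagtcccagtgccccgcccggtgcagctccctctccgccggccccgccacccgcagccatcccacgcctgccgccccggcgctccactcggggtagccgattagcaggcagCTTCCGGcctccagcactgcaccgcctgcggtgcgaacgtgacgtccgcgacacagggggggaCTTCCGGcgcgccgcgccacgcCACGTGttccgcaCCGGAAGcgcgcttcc

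SNRPB had CCGGAAG starting 41 bases before the gene start, and in GEMIN4 the nearer of its matches started 91 bases before it. SNRPC, 2.11-fold lower in the library labelled control 2 than in controls 1 and 3, also had CCGGAAG. SNRNP25, GEMIN5, SNRNP40 and GEMIN6, which were 3.08-, 2.92-, 2.63- and 2.55-fold lower there, had none. SNRNP48 had the E-box 33 bases before the start and no CCGGAAG. GEMIN8 had both, with the E-box at 29 bases and the nearest CCGGAAG at 16 bases. SNRPD2, SNRPA1 and SNRNP27 also had CCGGAAG and, like GEMIN8, were highest in the library labelled control 2. So CCGGAAG stood both before genes that were low in that library and before genes that were high there. Members with CCGGAAG had a median log2 difference of −0.77 between that library and controls 1 and 3, and members without it −0.46. The values overlapped, from −1.60 (GEMIN4) to 0.29 (SNRNP27) with it and from −1.63 (SNRNP25) to 0.88 (SNRNP48) without it. This split was not made over all genes, and a link of the motif with the levels was not tested. The median difference of knockdown minus control was 0.08 and 0.12.

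Over all genes, deviations from the group means correlated at 0.127, 0.394 and 0.566 for the libraries numbered 1, 2 and 3. Knockdown 2 with control 1 reached 0.164, above the value for number 1. By median absolute log2 difference, knockdown 2 was also closer to control 1 (0.244) than to the library labelled control 2 (0.602). With that limit, differences were also taken within same-numbered pairs. In pair 1 the members' median log2 difference was 0.13, ranging from −0.36 to 0.61, and 29 of 42 were above 0 (49.6% of all genes). In pair 2, which holds the library labelled control 2, the median was 0.37, the range −1.15 to 1.55, and 31 members were above 0 (52.1% of all genes). In pair 3 the median was −0.06, the range −0.23 to 0.14, and 8 members were above 0 (49.6% of all genes).

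Pair 3 was both the pair with the largest PRMT5 difference and the pair in which the members differed least. PRMT5 had a log2 difference of −1.58 there, against −0.36 in pair 1 and 0.43 in pair 2. All 42 members lay within 0.25 of 0 on the log2 scale in pair 3, as did 83% of all tested genes. In pairs 1 and 2 that held for 24 and 8 members, against 43.8% and 22.2% of all genes. The median absolute log2 difference of the members was 0.068 between knockdown 3 and control 3 (0.096 over all genes). Between control 3 and the library labelled control 2, in the same group, it was 0.68 (0.72 over all genes). A pair holds 1 library of each group, so these are values with no test.

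**Figure D4:**
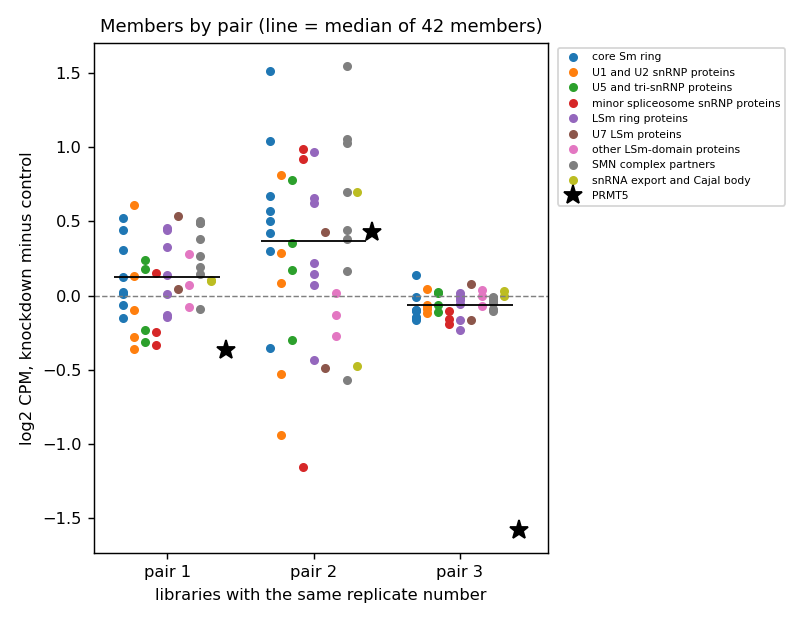
Log2 CPM difference of knockdown minus control in each pair of same-numbered libraries (dots, the 42 members coloured by role; black line, their median; star, PRMT5). In pair 3 the members lie between −0.23 and 0.14 while PRMT5 is at −1.58, and in pair 2 they spread from −1.15 to 1.55.

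Levels were compared between genes only per length, as CPM per kb of the median protein-coding transcript in GENCODE v29. SNRPD2 and SNRPB were highest, at 259 ± 26.8 and 242 ± 77.2 CPM per kb (SD over the 6 libraries), and their ranges overlapped. The other core Sm genes SNRPE, SNRPD1, SNRPN, SNRPG, SNRPF and SNRPD3 were at 159, 121, 112, 109, 103 and 95.3 CPM per kb. Among these, neighbours in the order did not differ beyond their spread over libraries (SDs of 18.5 to 44.0). By its mean, every core Sm gene was above every SMN complex gene on this scale. The highest of the latter was STRAP at 75.8 ± 10.6 CPM per kb. Its range over libraries overlapped those of SNRPD1, SNRPN, SNRPG, SNRPF and SNRPD3, and so did the range of GEMIN4. Within the LSm ring the levels ran from 182 for LSM4 to 10.8 for LSM3, and in the U7 pair from 19.2 for LSM10 to 1.08 for LSM11, the lowest member. The part of transcript choice and shared reads in these levels was not tested.

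**Figure D5:**
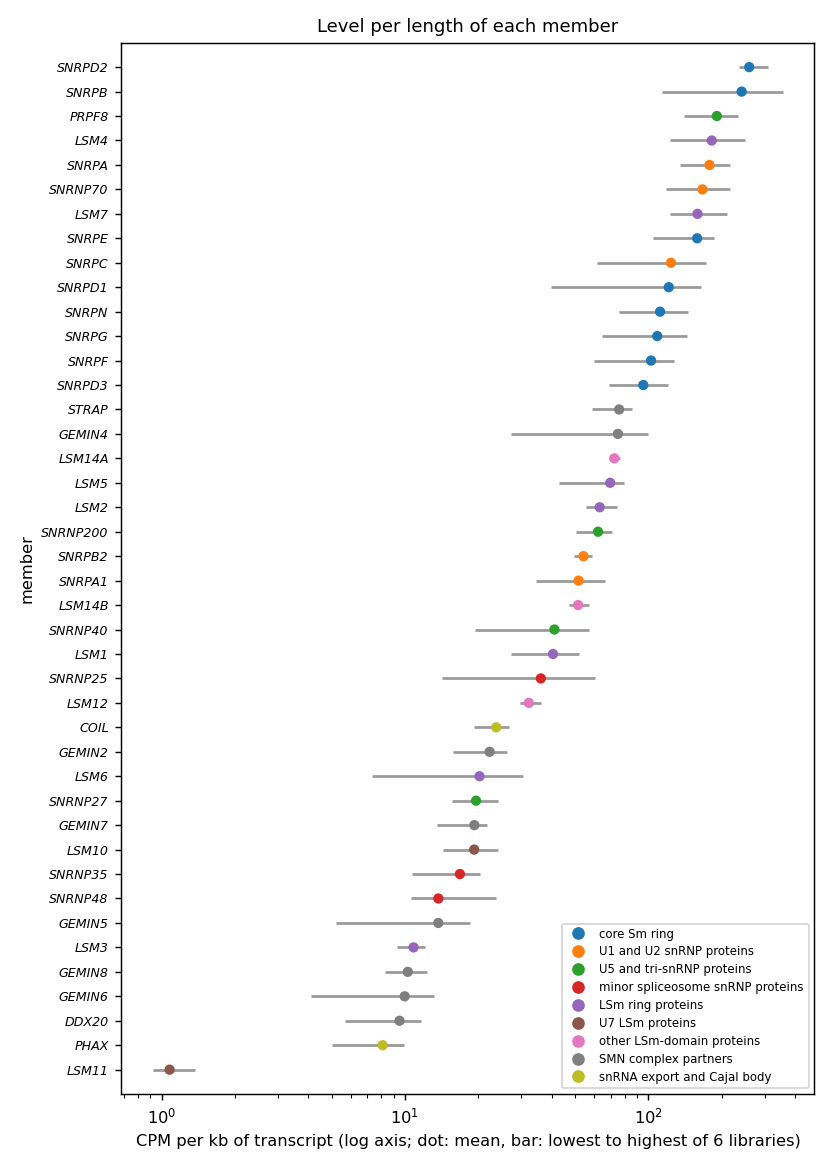
Mean level per length of each member over the 6 libraries (x axis, CPM per kb of transcript, log axis; dots coloured by role; bars, lowest to highest library). The means of the core Sm genes lie between 95.3 and 259 CPM per kb, above the means of all SMN complex genes, and LSM11 is lowest at 1.08 CPM per kb.

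Further genes of snRNP biogenesis and splicing, in 8 lists of 73 genes, gave 0 calls in either direction (edgeR adjusted p under 0.05), and 0 at an unadjusted p under 0.05. Of all 13668 tested genes, 0% and 1.77% passed these limits. The median log2 difference of the 73 genes was 0.09, and −0.04 without the library labelled control 2. Of 6 methylosome genes, 4 lay above 0. CLNS1A, the pICln gene, was at 176, 128 and 151 CPM in knockdown cells, against 169, 161 and 157 CPM in the controls (log2 difference −0.10, SE 0.20), and in the library labelled control 2 it lay between controls 1 and 3. WDR77 and RIOK1 had log2 differences of 0.50 and 0.37, and 0.07 and 0.11 without that library.

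Factors of snRNA capping, export and import were above 0 for 9 of 10 genes, with a median of 0.26 that was 0.02 without the library labelled control 2. NCBP1, of the cap-binding complex, was at 122, 106 and 128 CPM with the PRMT5 hairpin and 94.0, 33.5 and 125 CPM with the scrambled vector (0.50, SE 0.43, and 0.12 without that library). NOLC1, a nucleolar and Cajal body protein, was at 380, 325 and 333 CPM against 269, 86.1 and 355 CPM (0.55, SE 0.46, and 0.15 without that library). In both, the library labelled control 2 was low, as in most SMN complex genes. TGS1, which trimethylates the snRNA cap, and SART3, a U6 recycling factor, had 0.38 and 0.18, and 0.10 and 0.05 without it.

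The 12 Integrator genes, whose complex cleaves snRNA precursors, were divided, 6 above and 6 below 0, with INTS3 at −0.46, INTS7 at 0.56, INTS8 at −0.30 and INTS10 at −0.20. Without the library labelled control 2 these 4 were at −0.31, 0.17, −0.33 and −0.10. SF3a and SF3b genes of U2 were above 0 for 4 of 9, with SF3A3 at 0.49, PHF5A at 0.47, SF3B2 at −0.21 and SF3A2 at −0.19, and at 0.22, 0.18, −0.03 and −0.06 without it. Partners in the U4/U6.U5 tri-snRNP were above 0 for 8 of 13 (NHP2L1 0.37, PRPF4 0.36, PRPF31 0.33, TXNL4A 0.26, and 0.13, 0.07, 0.09 and 0.06 without it). None of these genes passed the test. Over the 73 genes, 2 (XRN1 and ZCRB1) had every knockdown library below every control and 0 the reverse. The shares over all tested genes were 3.1% and 3.14%.

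A pair of lists lay further below 0. Partners of the minor spliceosome were below 0 for 6 of 7 genes (median −0.23, and −0.06 without the library labelled control 2), with ZCRB1 at −0.41, RNPC3 at −0.37, ZRSR2 at −0.37 and ZMAT5 at −0.23. Without that library these 4 were at −0.28, 0.01, −0.03 and −0.14. Decay partners of the cytoplasmic LSm ring were below 0 for 6 of 8 (median −0.17, and −0.04 without that library). XRN1, the 5′ to 3′ exonuclease, was at 44.5, 49.3 and 55.7 CPM in knockdown cells, against 59.2, 114 and 57.3 CPM in the controls, and every knockdown value lay below every control (log2 difference −0.62, SE 0.31, and −0.22 without that library). PATL1, which binds the ring, had −0.67, DCP2, the decapping enzyme, −0.49 and EDC4, its scaffold, −0.30. Without the library labelled control 2 they were at −0.02, 0.01 and −0.06, so little of these differences was left. The library labelled control 2 was the highest of the 6 for 5 of these 8 genes (34.4% of all tested genes). It was the lowest for 8 of the 8 genes of the histone mRNA list (36.7% of all tested genes). In that list 8 of 8 lay above 0 (7 under RLE scaling, and 2 without that library), among them CPSF2 at 0.39, SYMPK at 0.16, NPAT at 0.16 and CPSF3 at 0.18, and at 0.09, −0.01, 0.02 and −0.06 without it.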

How the data were processed

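Poly(A) RNA-seq of 6 MV4-11 libraries was analysed, 3 per group, with groups and replicate numbers taken from the titles. The deposited values are estimated counts, unscaled, with a separate table of gene rows for each library. CASAVA 1.9, TopHat2 (version 2), edgeR and hg19 are listed in the submitters' processing notes, without saying what each was used for. Which tool and annotation gave the counts, and whether strand was used, is not given in the sources used here. Between 40.3% and 42.3% of values were whole (tolerance 1e-06), and 99.9958% to 100% were multiples of 1/51, so the values hold fractions of a read. They may be read coverage divided by a read length rather than counted reads; no source used here says which, and the model treats them as counts. 

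Values were rounded and fitted with edgeR 4.0.16 in R 4.3.3: filterByExpr (minimum count 10), TMM, glmQLFit and glmQLFTest (two-sided) on the group alone, Benjamini-Hochberg over 13668 genes, threshold 0.05. All adjusted p-values come from that model unless another tool is named. CPM are TMM-scaled; log2 values of single libraries and pairs used a prior count of 2. Exact permutation was not used, since with 3 against 3 it cannot go below p = 0.1. Scripts were tested on simulated data.

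The members, lists and tests were chosen with earlier results of these data known. Per-library values were printed for the core Sm genes, the 10 members with the smallest p and up to 2 members of each other role with the highest CPM; elsewhere, up to 4 genes a list by p. SNRPB2, LSM6, GEMIN8, LYZ, the myeloid genes beside it and genes whose promoters are described were added after their values were seen. Of the lists, COPRS was matched by an older symbol, C17orf79. Lengths came from GENCODE v29, for 83.9% of tested genes and all members. The reference is of another build than hg19, so its coordinates are given only with RefSeq sequences.

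The numbers 1 to 3 in the titles state no shared day or batch. Deviations from group means correlated at 0.127, 0.394 and 0.566 for same-numbered libraries, each above 0.1, so these are described as pairs; the pairing comes from the values. Knockdown 2 with control 1 also reached 0.164, above the value for number 1. Deviations cancel out within a group, so these correlations are tied to one another. They do not settle the pairing of the libraries numbered 1 and 2. Alternatives were 3 other scalings, 2 other filters, DESeq2 1.42.0, limma-voom (limma 3.58.1), a replicate block, each library left out and both libraries numbered 2 left out.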

Additional observations from a re-analysis of the deposited data

How the results depend on the processing

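The count of genes called over the whole table and the count of members called were 0 under all 15 alternatives. The members' median log2 difference, 0.10, was between 0.09 and 0.14 under the other scalings, filters and tools and with the replicate block. With the replicate number as a block it was 0.14, the smallest adjusted p of a member was 0.709 (edgeR) and no call changed. Leaving out 1 library at a time gave −0.03 to 0.31, the extremes being without the library labelled control 2 and without control 3; without knockdown 3 it was 0.06, and without both libraries numbered 2 it was 0.03. The cause was not tested. SNRPA1 without knockdown 3 (log2 difference −0.67, edgeR adjusted p = 0.966) and SNRNP48 without control 3 (−0.76, edgeR adjusted p = 0.524) went under an unadjusted 0.05. Signs turned for 14 members without the library labelled control 2, for 9 without both libraries numbered 2, for 6 without knockdown 3 and for at most 4 under any other alternative. The spread between libraries, with a biological coefficient of variation of 0.373 over all genes, limits what 3 libraries a group can show.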

Other observations

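The row deposited as NAA38 on chromosome 7, a symbol that RefSeq lists as an older name of LSM8, was not among the listed symbols and was chosen after its values were seen. LSM8 completes the nuclear LSm ring in place of LSM1. Its level was 225, 142 and 101 CPM in knockdown libraries 1 to 3, and the control-labelled libraries 1 to 3 had 157, 136 and 108 CPM, a log2 difference of 0.23 (SE 0.32, edgeR adjusted p = 0.926). Unlike 6 of the 7 listed ring genes it was not lowest in the library labelled control 2, where it was close to controls 1 and 3 (log2 difference 0.07), and its lowest values were in the libraries numbered 3. The snRNAs on which these proteins assemble were barely read in this poly(A) assay: of 34 rows named RNU, 12 had any count, and the highest value in a library was 54.4 counts.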
